A study of Mus musculus with 12 samples.

Results

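Curcumin given alone was compared with tumour control in the RNA of mouse mammary tumours, using the 3 curcumin and 3 control libraries of 12 in the series and all 21899 genes of the count table. The tumours were 4T1-LUC, a luciferase-tagged form of an aggressive mouse mammary carcinoma line, of which 0.2 mL of cell suspension was injected under the skin of 4- to 6-week-old BALB/c mice. Curcumin mice received 100 mg/kg curcumin in corn oil by gavage each afternoon, in 200 µL. Control mice received 200 µL of corn oil. The other 6 libraries came from combination mice, which had curcumin and 30 min of swimming, and from swimming mice, which had corn oil and the same swimming. Every host carried a tumour of a single transplanted line, so no comparison here involves healthy mammary tissue. The labels do not state that libraries came from separate mice, and each p-value therefore reflects nothing beyond the variation among these samples, which may be technical.

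Curcumin is the yellow polyphenol of turmeric. In cultured cells it is known to lower the activity of NF-kB, a transcription factor that drives inflammatory genes, and to release Nrf2, which turns on antioxidant and detoxifying genes, from its inhibitor Keap1. A tumour holds immune, stromal and vessel cells beside the cancer cells, and a library of whole tumour reads all of them at once. In such bulk libraries, fewer cells of a type and less RNA per cell cannot be told apart.

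Totals of the 6 libraries lay between 15069348 and 17278826 counts. Levels below are CPM of the library after TMM scaling. The epithelial keratins Krt8 and Krt18 were abundant in all 6 libraries, at 578 CPM or more. Control 2 stood apart from the other 5 on the first principal component (70.4, against -23.1 to -7.6), which held 51.6% of the variance. The biological coefficient of variation, the spread between replicates beyond counting error, was 12.4% in the curcumin group and 26.7% in the control group. It was 16.3% in the swimming and 6.47% in the combination group, which enter the shared estimate of spread. Because control 2 stood apart, values without it are given beside many of the results below. Curcumin 3 lay between curcumin 1 and curcumin 2 on the first component (-17, against -7.71 and -23.1). The same held on the second component (3.25, against 26.1 and -21). How much variation of its own curcumin 3 adds was not tested.

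No gene passed the test. Of 13638 genes tested with edgeR's quasi-likelihood test, 0 were called at a Benjamini-Hochberg adjusted p of 0.05 or below (0.0%), and the smallest adjusted p was 0.0677. Without control 2, 8 were called (0.0587%), without control 1 5, without control 3 1, without swimming 2 6 and without swimming 3 2, the swimming libraries entering through the shared estimate of spread. Of the 8 called without control 2, 7 were higher, and some had moved far. The log2 fold change of G0s2 was 0.435 with control 2 and 5.46 without it, and that of Clec4e 0.503 and 1.77. At an unadjusted p under 0.05 there were 690 higher genes (5.06% of those tested) and 800 lower genes (5.87%), 1490 in all, with 2705 in all without control 1 and 926 without curcumin 3. The curcumin libraries lay wholly above the control libraries for 1010 genes (7.41%) and wholly below them for 985 genes (7.22%). DESeq2 on the same counts called 87 genes (0.638%), 51 higher and 36 lower, and limma voom called 3. Differences were small in general, with a median absolute log2 fold change of 0.153 and 318 genes at 1 or more in size. Below, "higher" and "lower" give the sign of a difference and not a call. Fold changes are log2 values of curcumin over control with their standard error, and adjusted p-values are edgeR's over all 13638 genes unless DESeq2 is named.

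**Figure D1:**
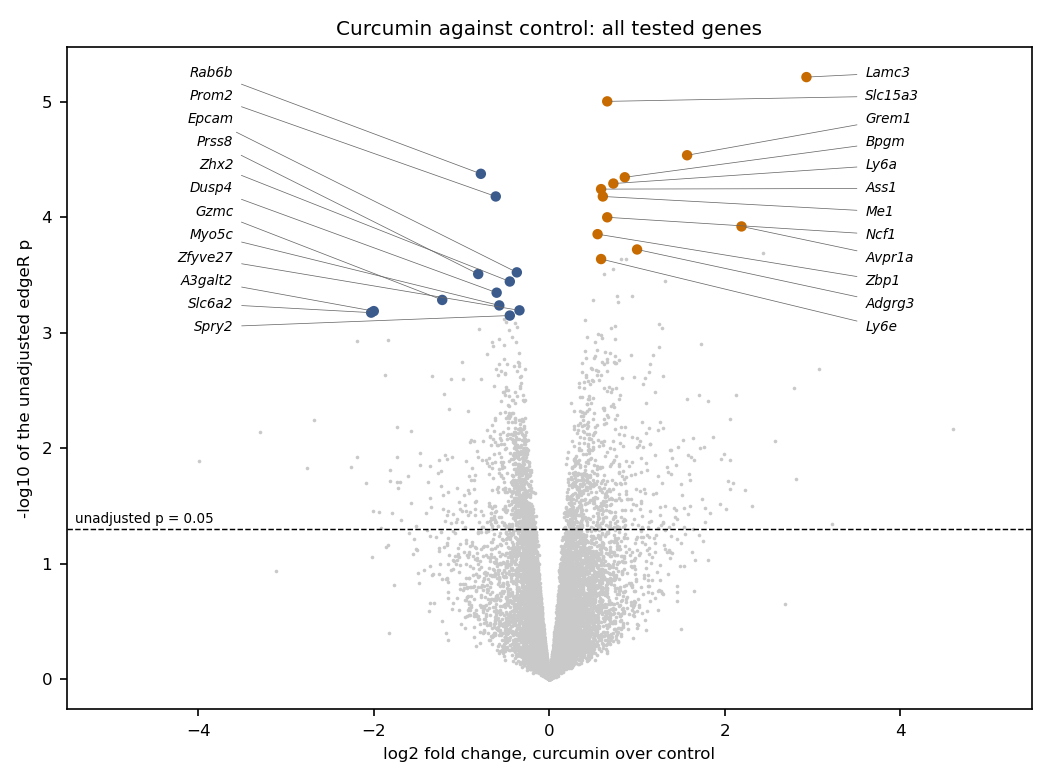
Differences between curcumin and control tumours for 13638 tested genes, as log2 fold change against the unadjusted edgeR p. Marked points are the 12 higher and 12 lower genes of smallest p without overlap between groups; Lamc3, at 2.93, stands out on the right.

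Of the 12 higher genes of smallest p, Lamc3, a laminin gamma chain of basement membranes, measured 9.4, 10.3 and 8.93 CPM in the curcumin libraries, against 1.88, 0.651 and 1.23 CPM in the control libraries. All curcumin values lay above all control values, which the choice of these 12 genes required, and the difference was 7.61-fold (2.93 ± 0.4, adjusted p = 0.068). Without control 2 Lamc3 passed edgeR's test (2.62, adjusted p = 0.023). The gene lies on chromosome 2 from 31777303 to 31836551 on the plus strand, in the coordinates of the deposited table. Slc15a3, which carries histidine and small peptides across lysosome membranes, stood at 129, 124 and 121 CPM in curcumin tumours and at 74.9, 70.7 and 91.8 CPM in controls. Its groups did not overlap (0.66 ± 0.09, adjusted p = 0.068), and it too passed without control 2 (0.58, adjusted p = 0.04).

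Grem1, a secreted inhibitor of bone morphogenetic proteins, had 93.9, 123 and 105 CPM in the curcumin group and 35.3, 43.3 and 29.7 CPM in the control group. Its lowest curcumin value was above its highest control value (1.57 ± 0.23, adjusted p = 0.1). Metabolic enzymes came next. Bpgm, which makes bisphosphoglycerate, averaged 21.4 ± 3.92 CPM in curcumin tumours and 11.7 ± 0.0437 CPM in controls (SD, n = 3 each, as for the means that follow; log2 0.86, adjusted p = 0.1). Ass1, the enzyme that joins citrulline and aspartate on the way to arginine, averaged 70.2 ± 7.29 CPM with curcumin and 46.5 ± 4.46 CPM in controls (0.59, adjusted p = 0.1). Me1, the cytosolic malic enzyme that supplies NADPH, averaged 37.6 ± 1.79 CPM with curcumin and 24.7 ± 1.51 CPM in controls (0.61, adjusted p = 0.1). Immune genes made up most of the rest.

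Ly6a, the surface antigen Sca-1, averaged 112 ± 20.1 CPM in curcumin tumours against 67.4 ± 5.14 CPM in controls (0.73, adjusted p = 0.1). Ly6e, of the same family, averaged 401 ± 28.7 CPM with curcumin against 266 ± 23.3 CPM in controls (0.59, adjusted p = 0.18). Both are known to be induced by interferon. Ncf1, a subunit of the phagocyte NADPH oxidase, averaged 60.5 ± 4.36 CPM in the curcumin group and 38.4 ± 3.45 CPM in the control group (0.66, adjusted p = 0.14). Zbp1, a sensor of Z-form nucleic acids that can trigger cell death, averaged 234 ± 25.3 CPM in curcumin tumours and 160 ± 8.86 CPM in controls (0.55, adjusted p = 0.16). The adhesion receptor Adgrg3 and the vasopressin receptor Avpr1a complete the 12. Avpr1a was low throughout, at 2.77, 3.33 and 3.73 CPM with curcumin and 0.606, 0.474 and 1.05 CPM in controls (2.19 ± 0.41, adjusted p = 0.15), and Adgrg3 stood at 1 (adjusted p = 0.18).

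Of the 12 lower genes of smallest p, Rab6b, a small GTPase of Golgi transport, measured 22.8, 23.7 and 24.9 CPM in the curcumin libraries and 41, 43.4 and 37.8 CPM in the control libraries. No curcumin value reached the lowest control value, which the choice of these 12 genes also required (-0.78 ± 0.13, adjusted p = 0.1). Prom2, a protein of epithelial membrane protrusions, had 42.3, 36.3 and 35.9 CPM with curcumin and 61, 58.9 and 54.9 CPM in controls, again without overlap (-0.61 ± 0.11, adjusted p = 0.1). Epcam, the epithelial adhesion molecule, had 271, 254 and 259 CPM with curcumin and 332, 368 and 316 CPM in controls, a small and separated difference (-0.37 ± 0.08, adjusted p = 0.19). Prss8, an epithelial membrane protease, averaged 14.9 ± 0.542 CPM in curcumin tumours and 26.2 ± 6.31 CPM in controls (-0.81, adjusted p = 0.19). Myo5c, a myosin of glandular epithelia, averaged 23.6 ± 3.73 CPM with curcumin and 35.1 ± 4.14 CPM in controls (-0.57, adjusted p = 0.25).

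Dusp4 and Spry2, both feedback inhibitors of the ERK kinase pathway, were also in this set. Dusp4 averaged 66.6 ± 6.34 CPM in the curcumin group and 101 ± 22.7 CPM in the control group (-0.6, adjusted p = 0.24). Spry2 averaged 36.2 ± 1.96 CPM with curcumin and 49.4 ± 6.77 CPM in controls (-0.45, adjusted p = 0.28). The others covered nerve, lymphocyte and general functions. Slc6a2, the noradrenaline transporter of sympathetic nerve endings, had 0.965, 0.784 and 1.35 CPM with curcumin and 4.54, 4.85 and 3.33 CPM in controls (-2.03 ± 0.46, adjusted p = 0.27). Gzmc, a granzyme of cytotoxic lymphocytes, averaged 6.32 ± 2.12 CPM in curcumin tumours against 14.7 ± 5.13 CPM in controls (-1.22, adjusted p = 0.25). The glycolipid galactosyltransferase A3galt2, the transcriptional repressor Zhx2 and the endoplasmic reticulum protein Zfyve27 stood at -2, -0.45 and -0.34 (adjusted p = 0.27, 0.2 and 0.27). Over the 24 genes the log2 fold changes ran from 0.55 to 2.93 among the higher and from -2.03 to -0.34 among the lower. DESeq2 called all 24, which had been picked for their small edgeR p.

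**Figure D2:**
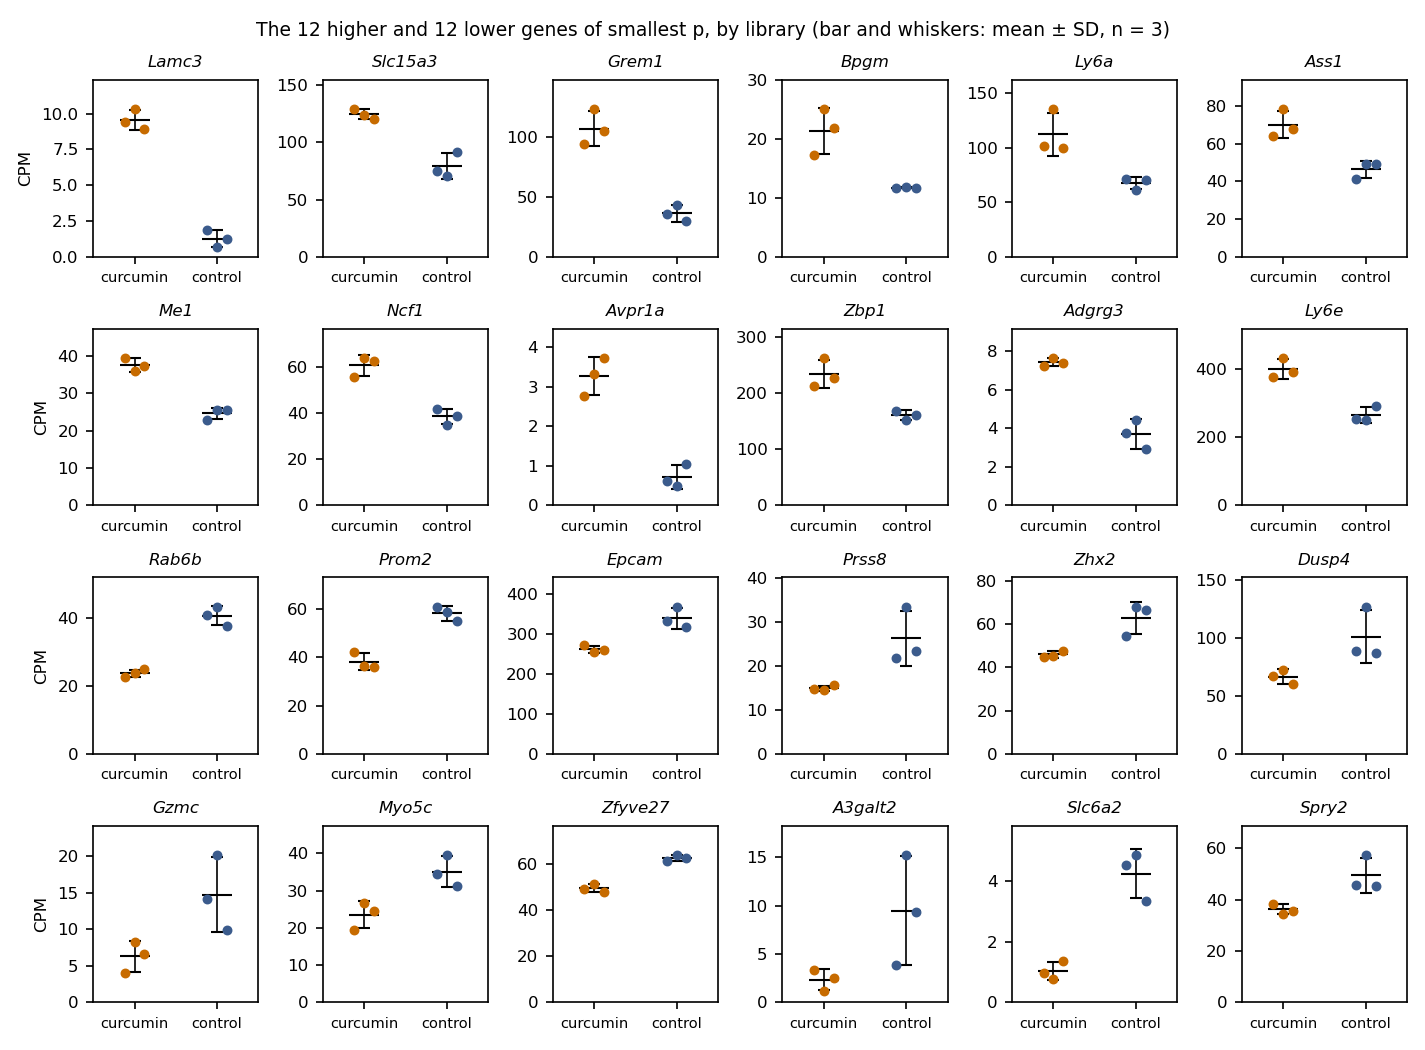
CPM of the 12 higher and 12 lower genes of smallest p, curcumin left of control. Points are libraries and the bar with whiskers is the mean ± SD (n = 3). The genes were picked for groups that do not overlap, and Lamc3 averages 9.55 ± 0.709 CPM with curcumin against 1.25 ± 0.614 CPM in controls.

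The largest separated differences lay in genes of low level. Ptn, the growth factor pleiotrophin, had 0.663, 3.07 and 0.771 CPM in the curcumin libraries and 0.242, 0 and 0.642 CPM in the control libraries (2.31 ± 0.95, adjusted p = 0.42). Ptx3, a soluble pattern recognition protein, had 2.23, 2.88 and 2.96 CPM with curcumin against 0.182, 0.296 and 1.34 CPM in controls (2.13 ± 0.6, adjusted p = 0.3). Both were higher in every curcumin library. In the other direction, Angptl7, a secreted angiopoietin-like protein, had 0.0603, 0.915 and 0.707 CPM with curcumin and 1.15, 10.5 and 4.84 CPM in controls (-3.29 ± 1, adjusted p = 0.35). Phex, a membrane endopeptidase of phosphate metabolism, had 0.904, 1.44 and 1.03 CPM with curcumin and 9.39, 2.49 and 3.62 CPM in controls (-2.19 ± 0.53, adjusted p = 0.28).

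DESeq2 also called genes that edgeR ranked behind these. Clec5a, a myeloid receptor, averaged 38.4 ± 3.88 CPM in curcumin tumours and 21.8 ± 4.09 CPM in controls (0.82, DESeq2 adjusted p = 0.0027). Pdpn, podoplanin of lymphatic and stromal cells, had 23, 56.5 and 37.8 CPM with curcumin and 17.4, 14.6 and 17.2 CPM in controls (1.25, DESeq2 adjusted p = 0.0034). Cwc22, a splicing factor whose gene is duplicated in some mouse strains, had 186, 237 and 227 CPM with curcumin and 47.9, 85.6 and 139 CPM in controls (1.25, DESeq2 adjusted p = 0.0027). How reads shared by gene copies were counted is not given in the sources used here, so the value for Cwc22 is uncertain. Among lower genes, Tpt1, the translationally controlled tumour protein, averaged 1630 ± 45.2 CPM with curcumin and 2340 ± 508 CPM in controls (-0.52, DESeq2 adjusted p = 0.017; -0.33 without control 2). Clstn1, Psd and Tmem132a stood at -0.36, -0.51 and -0.5 with DESeq2 adjusted p of 0.018, 0.018 and 0.026. Of the 87 DESeq2 genes, 87 had no overlap between groups and 21 had an edgeR adjusted p below 0.2.

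Interferon-stimulated genes were mostly higher with curcumin. Type I interferon genes, the antiviral set that cells switch on in answer to type I interferons, had 32 tested members. Of these 31 were higher with curcumin at a median log2 fold change of 0.45, against 50.3% higher and a median of 0.002 over all tested genes. EdgeR called 0 members and DESeq2 called 7, while 21 were higher at an unadjusted p under 0.05 (65.6%, against 5.06% of all genes) and 22 lay above control without overlap (68.8%, against 7.41%). The list level, the mean over members of log2 CPM after subtracting each gene's mean over the 6 libraries, was 0.22, 0.23 and 0.22 in the curcumin libraries and -0.42, -0.19 and -0.05 in the control libraries. The curcumin tumours were thus nearly equal, while control 1 was lowest and control 3 nearest to them. Without control 2 the median was 0.46.

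Oas2, which makes the second messenger that activates RNase L, had 101, 101 and 99.5 CPM in curcumin tumours and 41.3, 60.6 and 73.9 CPM in controls (0.78 ± 0.17, adjusted p = 0.24). Cmpk2, a mitochondrial nucleotide kinase induced by interferon, had 55.8, 58.6 and 63.2 CPM with curcumin and 29.9, 33 and 42.7 CPM in controls (0.75 ± 0.17, adjusted p = 0.28). In both genes the groups did not overlap and control 1 was lowest, as in the list level. Trim30a, a TRIM family protein, averaged 106 ± 7.89 CPM with curcumin against 68.8 ± 6.24 CPM in controls (0.62, adjusted p = 0.19). Ifit3, an antiviral effector, averaged 43.3 ± 3.02 CPM with curcumin and 25 ± 3.14 CPM in controls (0.79, adjusted p = 0.28). Oas3, a further synthetase, averaged 83.5 ± 3.84 CPM in curcumin tumours and 58.3 ± 8.91 CPM in controls (0.52, adjusted p = 0.28). The exception in sign was Irf9, named after its value was seen, at 141 ± 8.07 CPM with curcumin and 148 ± 25.9 CPM in controls (-0.07, adjusted p = 0.83; 0.08 without control 2).

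The interferon-gamma list holds GTPases that attack intracellular pathogens and chemokines that draw T cells. Its tested members were higher with curcumin in 22 of 22 cases (median 0.46, and 0.35 without control 2). EdgeR called 0 and DESeq2 called 3. At an unadjusted p under 0.05, 15 were higher (68.2%, against 5.06% of all genes), and 11 did not overlap (50%, against 7.41%). The list level was 0.02, 0.47 and 0.25 in curcumin libraries and 0, -0.6 and -0.15 in control libraries, so curcumin 1 and control 1 lay side by side. Cxcl10, a chemokine for activated T cells, had 60.2, 64.8 and 65 CPM with curcumin and 31.9, 30.6 and 41 CPM in controls (0.88 ± 0.17, adjusted p = 0.18). Gbp5, a guanylate-binding GTPase, had 65.8, 105 and 83.7 CPM with curcumin and 53.2, 39.7 and 54.7 CPM in controls (0.79 ± 0.17, adjusted p = 0.25). Neither gene overlapped between groups. Gbp8, of the same GTPase family, averaged 78.2 ± 2.69 CPM in curcumin tumours and 51.4 ± 3.64 CPM in controls (0.6, adjusted p = 0.28). Irgm2, an immunity-related GTPase, averaged 286 ± 52.5 CPM with curcumin and 201 ± 12 CPM in controls (0.51, adjusted p = 0.28).

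Macrophage markers also differed among these libraries, with levels of -0.31, 0.54 and 0.09 in curcumin tumours and 0.29, -0.45 and -0.16 in controls. Of their 17 tested members 13 were higher (median 0.26, and 0.1 without control 2), and their summed CPM was 3580, 6340 and 4650 with curcumin and 5270, 3300 and 3890 in controls. Their part in the interferon values was not tested. Antigen presentation genes, which interferon-gamma also raises, had smaller medians. MHC class I presentation genes had 16 of 19 members higher at a median of 0.16 (0.06 without control 2), and MHC class II genes had 9 of 10 at 0.24 (0.15 without control 2). Psmb8, an immunoproteasome subunit, averaged 35 ± 5.41 CPM in curcumin tumours and 28.2 ± 3.22 CPM in controls (0.31, adjusted p = 0.43).

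**Figure D3:**
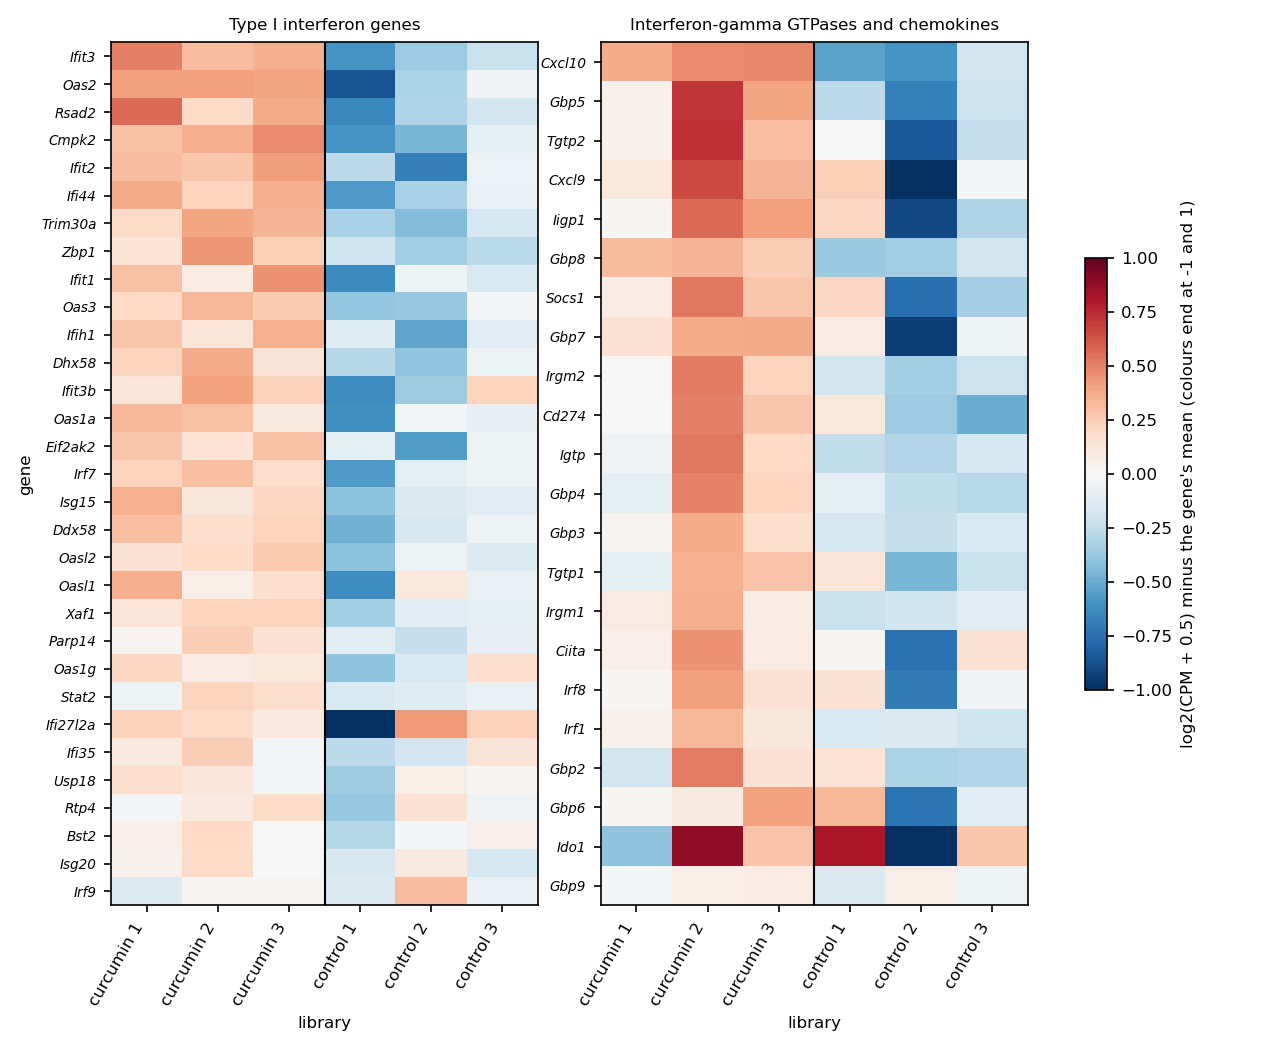
Centred log2 CPM of the tested type I interferon and interferon-gamma genes in the 3 curcumin and 3 control libraries, each row a gene and each column a library; a gene not reported here is left out. Type I genes sit at similar levels in the curcumin columns (list levels 0.22, 0.23 and 0.22), and interferon-gamma genes are lowest in control 2 (-0.6).

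The interferon-stimulated response element, bound by proteins of the IRF family, has a core that can be written GAAANNGAA. It was searched on both strands of RefSeq promoter windows (GRCm38.p6) that run from 250 bases before to 50 bases after the gene start. Of 32 type I interferon genes 24 had a window and 15 of these held the core (62.5%). Of 22 interferon-gamma genes 15 had a window and 13 held it (86.7%). Of 10797 tested genes with a window, 956 held it (8.85%). Here and below, shares of windows are shares of genes with a window, a gene being matched if any of its windows held the motif. To show what these matches look like, the stretches that follow surround the core in the 6 interferon genes of smallest p with a match before the start. Capitals mark the core or its reverse complement, and each sequence runs 5′ to 3′ along its gene. They come from Cxcl10 (chr5:92349044-92349139, minus strand), Trim30a (chr7:104465194-104465278, minus strand), Gbp5 (chr3:142496720-142496828, plus strand), Oas3 (chr5:120777670-120777778, minus strand), Irgm2 (chr11:58214863-58214971, plus strand) and Ifit3 (chr19:34583377-34583485, plus strand).
Cxcl10: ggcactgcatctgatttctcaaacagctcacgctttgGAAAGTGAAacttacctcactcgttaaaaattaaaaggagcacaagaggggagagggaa
Trim30a: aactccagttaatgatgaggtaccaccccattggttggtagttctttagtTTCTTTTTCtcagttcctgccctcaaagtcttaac
Gbp5: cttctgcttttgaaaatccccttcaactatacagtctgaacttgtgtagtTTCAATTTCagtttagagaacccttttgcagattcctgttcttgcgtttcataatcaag
Oas3: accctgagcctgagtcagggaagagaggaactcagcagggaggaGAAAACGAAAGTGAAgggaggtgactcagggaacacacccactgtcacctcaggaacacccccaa
Irgm2: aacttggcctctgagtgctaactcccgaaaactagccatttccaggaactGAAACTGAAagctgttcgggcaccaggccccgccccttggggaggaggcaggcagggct
Ifit3: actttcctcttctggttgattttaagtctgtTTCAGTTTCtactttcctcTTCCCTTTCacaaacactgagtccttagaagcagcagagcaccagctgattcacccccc

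In Oas3 a pair of overlapping cores forms a single run, and Ifit3 holds 2 separate cores. The core of Cxcl10 lies 213 to 205 bases before the start and that of Trim30a 35 to 27 bases before it. Other motifs were read in the same windows. The gamma-activated site, written TTCNNNGAA, was in 25.0% of type I windows, 53.3% of interferon-gamma windows and 8.36% of all windows. A kappa-B motif, GGGANNNCC, was in 20.8% and 40.0% of the interferon windows, 40.0% of NF-kB target windows and 27.4% of all. The CCAAT box was in 41.7% of type I, 46.7% of interferon-gamma, 72.4% of cell cycle and 42.7% of all windows. A match describes letters and not binding.

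Extracellular matrix genes were mixed in direction. Laminins and other basement membrane genes had 9 of 17 members higher (median 0.06), with Lamc3 at one end. Lamb1, a widely expressed laminin beta chain, had 764, 710 and 720 CPM with curcumin and 820, 962 and 792 CPM in controls (-0.23 ± 0.09, adjusted p = 0.39; -0.14 without control 2). Nid1, nidogen, which links laminin to collagen IV, had 132, 149 and 141 CPM with curcumin and 105, 105 and 102 CPM in controls (0.43 ± 0.19, adjusted p = 0.44). Both separated the groups, in opposite directions. Collagen chains had 15 of 23 higher (median 0.22, and 0.06 without control 2). Among them, the fibril regulator Col5a3 averaged 107 ± 8.57 CPM in curcumin tumours and 63.6 ± 21.2 CPM in controls (0.76, adjusted p = 0.38). Col18a1, the source of endostatin, averaged 312 ± 35.3 CPM with curcumin and 398 ± 49.2 CPM in controls (-0.35, adjusted p = 0.35). Of collagen modifying enzymes 13 of 17 were higher (median 0.09, and 0.18 without control 2), and Loxl2, which cross-links collagen, averaged 77.8 ± 2.97 CPM with curcumin and 46.5 ± 8.06 CPM in controls (0.74, adjusted p = 0.34).

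Matricellular and fibre proteins had 19 of 31 members higher (median 0.3, and 0.1 without control 2). At an unadjusted p under 0.05, 6 were higher (19.4%, against 5.06% of all genes) and 4 lower (12.9%, against 5.87%). Ccn4, a matricellular protein induced by Wnt, had 67.2, 59.1 and 62.1 CPM in curcumin tumours and 43.3, 43.6 and 38.8 CPM in controls (0.58 ± 0.14, adjusted p = 0.28). Spp1, osteopontin, had 1210, 1190 and 1180 CPM with curcumin and 1560, 2060 and 1500 CPM in controls (-0.51 ± 0.14, adjusted p = 0.3). Neither overlapped between groups, and they lay on opposite sides. Vcan, the proteoglycan versican, averaged 58.7 ± 2.18 CPM in curcumin tumours and 31.9 ± 13 CPM in controls (0.88, adjusted p = 0.38), and Fn1, fibronectin, averaged 9320 ± 712 CPM with curcumin and 12500 ± 3910 CPM in controls (-0.43, adjusted p = 0.43; -0.14 without control 2).

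Matrix proteases and their inhibitors had 18 of 26 members higher (median 0.14, and 0.21 without control 2). At an unadjusted p under 0.05, 5 were higher (19.2%, against 5.06% of all genes) and 0 lower. Mmp10, stromelysin 2, had 49.8, 52.3 and 47 CPM with curcumin and 26.9, 26 and 24.6 CPM in controls (0.94 ± 0.2, adjusted p = 0.24). Timp3, a matrix-bound inhibitor of metalloproteinases, had 70.4, 58 and 64.3 CPM with curcumin and 43.4, 47.9 and 24.6 CPM in controls (0.73 ± 0.18, adjusted p = 0.28). A protease and an inhibitor thus stood on the same side, both without overlap. The disintegrin protease Adam12 averaged 99.3 ± 12.4 CPM in curcumin tumours and 59.2 ± 10.7 CPM in controls (0.75, adjusted p = 0.28). Mmp9, gelatinase B, had 508, 322 and 414 CPM with curcumin and 293, 85.4 and 274 CPM in controls (0.93 ± 0.38, adjusted p = 0.43; 0.55 without control 2). Laminin and matrix receptors had 11 of 21 higher (median 0.03), with the integrin Itgb6 at 1.03 (adjusted p = 0.36) and the collagen receptor Ddr1 at -0.52 (adjusted p = 0.35; -0.24 without control 2).

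Secreted ligands and inhibitors of developmental pathways lay on both sides. In the BMP pathway 15 of 30 members were higher (median 0.01). Id3, a direct BMP target, had 93, 81 and 79.2 CPM with curcumin and 97.8, 149 and 110 CPM in controls (-0.5 ± 0.14, adjusted p = 0.29; -0.3 without control 2). Grem1 lay above control and Id3 below it, each without overlap, and a link between them was not tested. Id3 was the 1 list member lower at an unadjusted p under 0.05 (3.33%, against 5.87% of all genes), and 3 were higher (10.0%, against 5.06%). Without overlap, 4 members lay above control (13.3%, against 7.41%) and 2 below it (6.67%, against 7.22%). In the Wnt pathway 21 of 32 were higher (median 0.15). The ligand Wnt5a had 22.2, 39.5 and 26.8 CPM with curcumin and 17.8, 10.2 and 13.1 CPM in controls (1.1 ± 0.34, adjusted p = 0.35). The ligand Wnt4, the secreted modulator Dkk2 and the co-receptor Lrp6 stood at 1.81, 0.77 and -0.3 (adjusted p = 0.31, 0.34 and 0.36), Lrp6 at -0.17 without control 2.

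In the TGF-beta pathway 7 of 20 members were higher (median -0.04). The ligand Tgfb3 averaged 78.1 ± 7.17 CPM in curcumin tumours and 98.5 ± 10.5 CPM in controls (-0.34, adjusted p = 0.35), and Tgfb2 averaged 14 ± 0.986 CPM with curcumin and 9.42 ± 1.29 CPM in controls (0.57, adjusted p = 0.42). Ligands of one family thus stood on both sides of 0. Of mesenchymal transition factors and cadherins 9 of 19 were higher (median -0.03). The epithelial splicing regulator Esrp2 and the mesenchymal factor Twist1 were both lower, at -0.57 and -0.28 (adjusted p = 0.33 and 0.38).

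A panel of 40 genes that curcumin is known for was read in every case, and 39 could be tested. Of these 24 were higher, edgeR called 0, DESeq2 called 1, and the median was 0.03. At an unadjusted p under 0.05 there were 5 higher and 5 lower members (12.8% each, against 5.06% and 5.87% of all genes). Cyp1a1, a classic target of the aryl hydrocarbon receptor, had 0 counts in all 6 libraries. On the NF-kB side, Rela, the p65 subunit, had 133, 130 and 131 CPM with curcumin and 143, 188 and 146 CPM in controls (-0.28 ± 0.1, adjusted p = 0.38; -0.14 without control 2). Nfkb1, Nfkbia and Ikbkb, a subunit, an inhibitor and a kinase of the pathway, stood at 0.01, -0.09 and -0.08, and without control 2 the first 2 changed sign, to -0.06 and 0.28. Nos2, inducible nitric oxide synthase, had 177, 360 and 261 CPM with curcumin and 176, 117 and 68 CPM in controls (1.15 ± 0.36, adjusted p = 0.36), so that curcumin 1 and control 1 were nearly equal. Ptgs2, cyclo-oxygenase-2, averaged 156 ± 20.6 CPM with curcumin and 145 ± 70.3 CPM in controls (0.11, adjusted p = 0.91; 0.54 without control 2). The cytokines Tnf, Il1b and Il6 stood at 0.62, 0.24 and 1.05 (adjusted p = 0.6, 0.71 and 0.42), and without control 2 at 1, 0.52 and 0.84.

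The NF-kB target list as a whole had 16 of 26 members higher (median 0.12, and 0.22 without control 2). At an unadjusted p under 0.05, 5 were higher (19.2%, against 5.06% of all genes) and 1 lower (3.85%, against 5.87%). Il1a, an interleukin released by stressed cells, averaged 56.2 ± 12.3 CPM in curcumin tumours and 33.4 ± 6.39 CPM in controls (0.75, adjusted p = 0.35). The adhesion molecule Icam1 averaged 25.3 ± 5.34 CPM with curcumin and 16 ± 3.82 CPM in controls (0.66, adjusted p = 0.36). Chemokines had 15 of 24 higher (median 0.11, and 0.29 without control 2), with 5 at an unadjusted p under 0.05 (20.8%, against 5.06%). Ccl5, made by T cells and macrophages, had 8.08, 30.1 and 15.6 CPM with curcumin and 11.2, 3.14 and 7.18 CPM in controls, with overlap (1.32 ± 0.53, adjusted p = 0.42). Cxcl13, which draws B cells, had 53 counts in the curcumin group, none of them in curcumin 1, and 2 counts in the control group. Tumour cytokines and growth factors had 21 of 27 higher (median 0.25), such as Pdgfa at 0.67 and Lif at 0.43 (adjusted p = 0.34 and 0.28). Prostaglandin and leukotriene genes had 15 of 19 higher (median 0.22), and STAT3 feedback and interleukin-6 family genes 6 of 16 (-0.09, and 0.09 without control 2).

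On the Nrf2 side, Nfe2l2, which encodes Nrf2, and its inhibitor Keap1 stood at -0.1 and 0.02 (-0.03 and 0.04 without control 2). Hmox1, heme oxygenase 1, had 266, 219 and 243 CPM with curcumin and 86.7, 227 and 234 CPM in controls (0.41 ± 0.33, adjusted p = 0.65), where control 1 alone was low. Nqo1, the quinone reductase, averaged 2.9 ± 0.68 CPM with curcumin and 1.92 ± 0.414 CPM in controls (0.6, adjusted p = 0.54). The glutathione synthesis subunits Gclc and Gclm stood at -0.04 and 0.31 (adjusted p = 0.87 and 0.5), Gclc at -0.07 without control 2. Over the Nrf2 target list 19 of 26 members were higher (median 0.13, and 0.2 without control 2). Of them 7 lay above control without overlap (26.9%, against 7.41% of all genes), and 4 reached an unadjusted p under 0.05 (15.4%, against 5.06%). Beside Me1 these were Ugdh, which makes UDP-glucuronate, and Taldo1 and G6pdx of the pentose phosphate pathway, at 0.34, 0.33 and 0.26 (adjusted p = 0.35, 0.36 and 0.37). The antioxidant response element, written TGACNNNGC, was in 9 of 21 Nrf2 target windows (42.9%) and in 16.9% of all windows. Aryl hydrocarbon and xenobiotic genes had 5 of 11 higher (median -0.1), with the receptor Ahr at -0.38 (adjusted p = 0.43; -0.13 without control 2).

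Other panel genes covered survival, growth and vessels. Vegfa, the main vessel growth factor, had 200, 234 and 217 CPM with curcumin and 179, 170 and 96.8 CPM in controls, all curcumin values above all control values (0.55 ± 0.19, adjusted p = 0.38). Bcl2l1, which encodes the survival protein BCL-XL, averaged 83.3 ± 3.22 CPM with curcumin and 104 ± 19.6 CPM in controls (-0.32, adjusted p = 0.36; -0.16 without control 2). Mtor, the growth kinase, averaged 97.5 ± 4.54 CPM with curcumin and 116 ± 10.7 CPM in controls (-0.26, adjusted p = 0.38). Myc, Ccnd1, Trp53, Stat3, Akt1, Bax and Bcl2 stood at -0.3, 0.19, -0.14, -0.14, 0.07, 0.02 and 0.03. Without control 2 Ccnd1, Trp53 and Stat3 changed sign, to -0.08, 0.04 and 0.06, and Myc, Bax and Bcl2 stood at -0.17, 0.08 and 0.06. BCL2 family genes and caspases had 12 of 22 higher (median 0.03), p53 targets 12 of 19 (0.05), and angiogenic ligands and receptors 8 of 19 (-0.02).

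Several list medians moved with control 2. Cell cycle and DNA replication genes had 34 of 36 members higher at a median of 0.45, with levels of 0.26, 0.23 and 0.23 in curcumin libraries and 0.2, -0.97 and 0.05 in control libraries. Without control 2 the median was 0.11, and 30 of 36 were still higher. With all libraries 14 lay above control without overlap (38.9%, against 7.41% of all genes). At an unadjusted p under 0.05, 1 was higher (2.78%, against 5.06%). In combination over swimming tumours 34 of 36 were higher, at a median of 0.38. Cdk1, the mitotic kinase, had 75.1, 72.2 and 68.6 CPM with curcumin and 56.6, 34.7 and 64.1 CPM in controls (0.47 ± 0.22, adjusted p = 0.46; 0.25 without control 2). Cytosolic ribosomal protein genes had 2 of 38 members higher, 13 lower at an unadjusted p under 0.05 (34.2%, against 5.87% of all genes) and a median of -0.23. Without control 2 the ribosomal median was -0.08, with 7 of 38 higher. In combination over swimming tumours 2 of 38 were higher, at a median of -0.32. Rps6 averaged 878 ± 12.2 CPM with curcumin and 1110 ± 191 CPM in controls (-0.33, adjusted p = 0.36; -0.19 without control 2). Heat shock chaperones had 4 of 16 higher (median -0.17, and -0.01 without control 2), and Hspa1b, an inducible HSP70 gene, had 145, 91.6 and 124 CPM with curcumin and 115, 585 and 107 CPM in controls. Immediate early genes had 2 of 22 higher (median -0.22, and -0.08 without control 2), and glucocorticoid targets 1 of 12 (-0.31, and -0.08 without control 2). The part of these stress genes in other results was not tested.

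Metabolic and stress lists lay close to 0. Cholesterol and fatty acid synthesis genes had 21 of 25 higher (median 0.19, and -0.03 without control 2). Glycolysis genes had 10 of 18 (0.03, and 0.19 without control 2), and other hypoxia-inducible genes 7 of 17 (-0.05, and 0.18 without control 2). The nuclear respiratory chain had 15 of 25 higher (0.01), clock genes 11 of 18 (0.02), unfolded protein response genes 11 of 26 (-0.02) and autophagy and lysosome genes 12 of 27 (-0.1). Ferroptosis and iron genes had 8 of 17 (-0.02), metallothioneins and metal handling 3 of 7 (-0.08, and 0.17 without control 2) and mitochondrially encoded genes 4 of 10 (-0.01). Within these lists, Mcoln1, a lysosomal cation channel, had 45.6, 53.2 and 43.2 CPM with curcumin and 59.1, 61.9 and 58.4 CPM in controls, with no overlap (-0.34 ± 0.09, adjusted p = 0.29).

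Markers of tumour epithelium lay on both sides. Of 14 tested, 4 were higher (median -0.14, and -0.05 without control 2). At an unadjusted p under 0.05 there were 3 lower members (21.4%, against 5.87% of all genes). These were Epcam, given above, Krt18 with 810, 645 and 720 CPM in curcumin tumours and 843, 944 and 864 CPM in controls (-0.29 ± 0.09, adjusted p = 0.35), and Krt8 with 728, 578 and 626 CPM in curcumin tumours and 786, 766 and 767 CPM in controls (-0.26 ± 0.09, adjusted p = 0.37). All 3 lay below control without overlap (21.4%, against 7.22% of all genes). Muc1, Krt14 and Krt7 had positive values of 0.67, 0.31 and 0.21 (adjusted p = 0.62, 0.74 and 0.57). The summed CPM of the list was 3570, 3090 and 3270 with curcumin and 3720, 3800 and 3700 in controls.

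Stromal and immune markers varied within both groups. Fibroblast markers had 15 of 15 higher (median 0.33, and 0.07 without control 2), with levels of 0.13, 0.48 and 0.3 in curcumin tumours and -0.1, -1.14 and 0.33 in controls. Skeletal muscle markers had 17 of 19 higher (median 0.55, and 0.03 without control 2), with levels of 0.68, 0.86 and 0.76 with curcumin and 0.04, -3.56 and 1.22 in controls. In both lists control 2 was lowest, and the part of either in the matrix values was not tested. Neutrophil markers had 4 of 13 higher, and their median of -0.23 was 0.64 without control 2, whose level of 1.05 was the highest. T cell markers had 14 of 17 higher (0.25, and 0.06 without control 2) and natural killer and cytotoxic markers 7 of 8 (0.38, and 0.12 without control 2). Dendritic cell markers had 7 of 11 higher (0.07), endothelial markers 2 of 18 (-0.17, and -0.04 without control 2) and pericyte and smooth muscle markers 5 of 10 (-0.02). Adipocyte markers had 5 of 8 (0.37, and 0.05 without control 2), and the defining fat hormone Adipoq had 0 counts in the curcumin group and 2 in the control group. Of the 8, Cidec, Cfd and Pck1 had 0, 6 and 2 counts in the curcumin group and 1, 2 and 0 in the control group. These members passed the filter on low counts only through the combination libraries, so their signs carry little weight.

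Mast cell and basophil markers had a median of 1.6 (1.43 without control 2) over 5 tested members of 8. Of these 4 were higher, all 4 at an unadjusted p under 0.05 (80%, against 5.06% of all genes). The list level was -0.44, 1.44 and 0.58 in curcumin libraries and -0.66, -0.43 and -0.49 in control libraries. Mcpt4, a mast cell chymase, had 0.181, 4.12 and 1.86 CPM with curcumin and 0.303, 0.414 and 0.292 CPM in controls (2.58 ± 0.83, adjusted p = 0.35). Tpsb2, a tryptase, had 0.784, 6.8 and 3.02 CPM with curcumin and 0.969, 0.71 and 0.875 CPM in controls (2.04 ± 0.76, adjusted p = 0.38). For both genes curcumin 2 and curcumin 3 were high and curcumin 1 lay near the controls. Mcpt8, a basophil protease, did not overlap, at 3.86, 5.42 and 3.28 CPM with curcumin and 2.12, 1.89 and 1.52 CPM in controls (1.18 ± 0.46, adjusted p = 0.4). Of the smaller lists, B and plasma cell markers had 1 of 3 higher, keratinocyte markers 2 of 4, Schwann cell and nerve markers 2 of 6 and erythroid markers 0 of 4, with medians of -0.16, -0.32, -0.3 and -0.86, and of 0.44, 0.06, -0.16 and -0.39 without control 2.

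**Figure D4:**
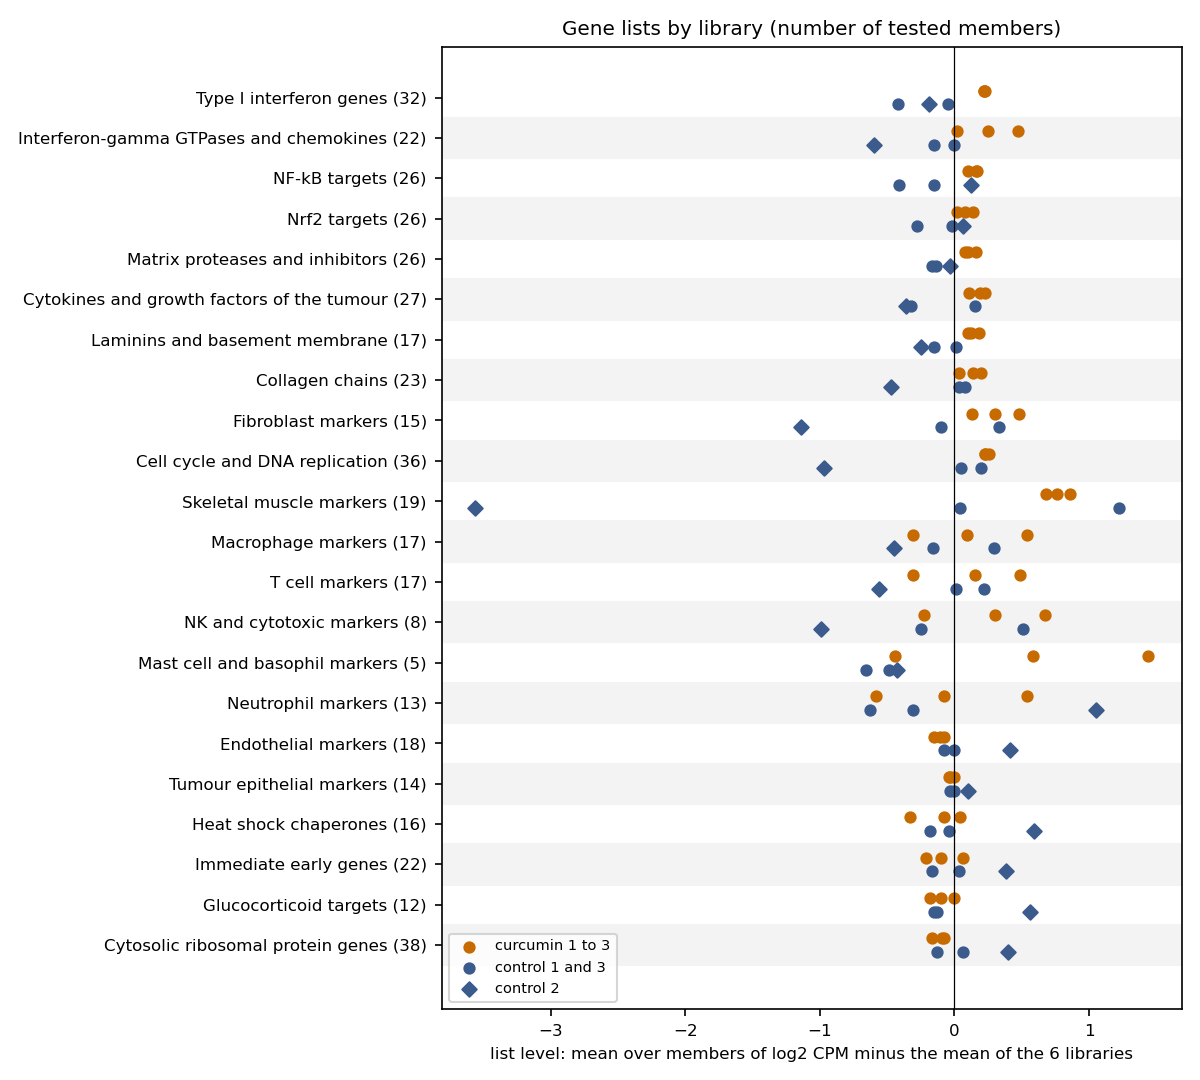
List level, the mean over members of centred log2 CPM, in each library for a choice of gene lists, with curcumin above control. Of 56 lists, 10 had levels without overlap between groups, cell cycle genes among them. Type I interferon genes were another (0.22, 0.23 and 0.22 with curcumin, -0.42, -0.19 and -0.05 in controls). The cell cycle, muscle and fibroblast rows are spread by control 2.

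Curcumin was also given to swimming mice, and the contrast of combination over swimming shares no library with curcumin over control. There edgeR called 478 genes higher (3.5%) and 430 lower (3.15%). The number moved when single libraries were left out, to 31 to 89 genes without any 1 combination library, 114 without swimming 1 and 164 without swimming 3. It was 467 without curcumin 3, 1642 without control 1 and 2705 without control 2. Leaving out a library also leaves an arm of 2, and the part of this in the counts was not tested. Of the 690 genes higher with curcumin alone at an unadjusted p under 0.05, 513 also had a positive difference in swimming mice (74.3%, against 49.4% of all tested genes), 99 were called higher there (14.3%) and 16 lower (2.32%). Of the 800 lower genes, 654 had a negative difference (81.8%), 78 were called lower (9.75%) and 11 higher (1.38%). Across all tested genes the log2 fold changes of both contrasts correlated at r = 0.305 and rho = 0.365, a description over genes, which are not independent.

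Among the 12 higher genes, 10 had a positive difference in swimming mice and 7 rose there past the threshold. Lamc3 had 11.9, 10.9 and 8.41 CPM in combination tumours and 2.34, 2.97 and 0.878 CPM in swimming tumours (2.33 ± 0.38, adjusted p = 0.01). Grem1 had 139, 140 and 141 CPM in combination tumours and 19.7, 31.1 and 13.9 CPM in swimming tumours (2.7 ± 0.25, adjusted p = 0.00098). Both were higher in all 3 combination libraries. Slc15a3, Ly6a, Ly6e, Avpr1a and Bpgm rose as well, by 0.53, 0.73, 0.63, 1.79 and 0.53 (adjusted p = 0.012, 0.011, 0.014, 0.021 and 0.046). Of the 12 lower genes 10 had a negative difference and 3 fell past the threshold, namely Rab6b, Prom2 and Spry2 at -0.64, -0.46 and -0.41 (adjusted p = 0.017, 0.028 and 0.035). Ass1, Ncf1, Epcam and Myo5c had the other sign, at -0.03, -0.1, 0.2 and 0.34, and the test of the difference between the contrasts gave adjusted p of 0.12, 0.12, 0.056 and 0.059.

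Type I interferon genes had 30 of 32 positive differences in swimming mice (median 0.36), and 10 of them rose past the threshold, which 3.5% of all tested genes did. Oas2 rose by 0.94 (adjusted p = 0.012) and Cmpk2 by 0.97 (adjusted p = 0.013). Interferon-gamma genes had 16 of 22 (median 0.24), with 0 called higher and 1 called lower. Adam12 rose by 1.03 (adjusted p = 0.014), whereas Mmp10 stood at -0.03 (adjusted p = 0.93). Nrf2 and NF-kB targets had medians of -0.21 and -0.15 in swimming mice. Medians of marker lists in the same contrast were -1.92 for neutrophils (5 of 13 members called lower) and -1.62 for erythroid cells (2 of 4 called lower). They were -0.72 for mast cells and basophils (0 of 5 called) and 1.6 for adipocytes (2 of 8 called higher). The adipocyte members Cidec, Cfd and Pck1 stood at 2.16, 1.99 and 2.2. They passed the filter on low counts only through the combination libraries, where they were high, so they lend that median no separate weight. Endothelium stood at 0.97 (10 of 18 called higher) and fibroblasts at 0.89 (0 of 15 called). Of all tested genes 3.5% were called higher and 3.15% lower. The other 10 marker lists had medians of -0.35 to 0.43. The part of any of these cells in the values above was not tested.

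The difference between the contrasts itself was called for 34 genes (0.249%), 22 with a larger value in swimming mice and 12 with a smaller value. The number was 19 without edgeR's robust estimate of the spread, an option taken after both settings had been run, and it moved when single libraries were left out. It was 460 without control 2, 97 without swimming 2, 21 without control 3, 16 without swimming 3, 15 without curcumin 1, 6 without curcumin 2, 1 without curcumin 3 or any 1 combination library, and 0 without swimming 1. Ptprb, a phosphatase of vessel endothelium, had 25.3, 18.2 and 22.9 CPM with curcumin and 27, 28.1 and 30.8 CPM in controls (-0.37), and 32.8, 29 and 32.7 CPM in combination and 12.5, 11.8 and 13.6 CPM in swimming tumours (1.31). It was thus lower with curcumin alone and higher with curcumin and swimming (adjusted p of the difference = 0.0066). Cwc22 ran the other way, with 45.1, 42.2 and 45.2 CPM in combination and 148, 162 and 119 CPM in swimming tumours (-1.69, adjusted p of the difference = 0.026). Itgb2, the shared integrin chain of leukocytes, had 219, 334 and 250 CPM with curcumin and 188, 197 and 171 CPM in controls (0.53), and 144, 150 and 139 CPM in combination and 247, 208 and 271 CPM in swimming tumours (-0.75, adjusted p of the difference = 0.0263). Of the 24 genes of smallest p, 0 were among the 34.

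**Figure D5:**
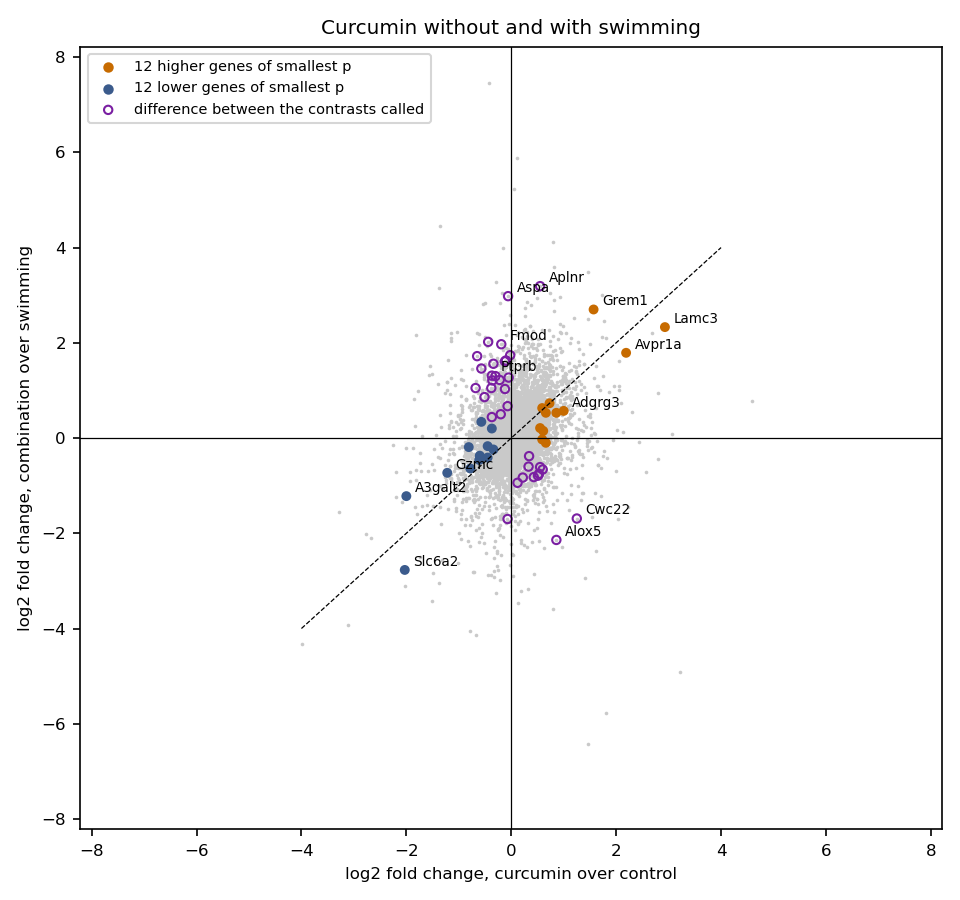
Log2 fold change of curcumin over control against that of combination over swimming for 13638 tested genes. Lamc3 (2.93 and 2.33) and Grem1 (1.57 and 2.7) are high on both axes, while Cwc22 (1.25 and -1.69), 1 of the 34 genes whose difference was called, lies at opposite signs.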

How the data were processed

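Libraries of tumour RNA, 12 in 4 groups of 3, were analysed. Per the labels' protocols, the authors trimmed reads, aligned them with HISAT2 2.0.5 to mm9 and counted them per gene with HTSeq 0.9.1; the submitters' processing notes instead list TopHat2 and GRCm39, so the build of the table is uncertain. The deposited table gives raw counts and FPKM, both by the authors. Every one of 184877 FPKM values above 0 followed from the counts (relative tolerance 1e-05), and the counts were used.

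The filterByExpr function (minimum count 10, minimum total 15) left 13638 genes. EdgeR 4.0.16 (R 4.3.3) fitted all 12 libraries by group with TMM scaling, 8 residual degrees of freedom and Benjamini-Hochberg adjustment. The design fixed for this work named the quasi-likelihood fit without its robust option; the robust option was taken as the main setting after both had been run on these data, because an earlier analysis of the series had used it. DESeq2 1.42.0 and limma 3.58.1 were alternatives. For symbols with several identifiers the one with most counts was used.

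Members and gene lists were chosen with earlier results of these data known. Genes named are the 12 of smallest p in each direction and the largest changes among separated genes of at least 1 CPM, up to 4 members of smallest p per list, the 40-gene panel and further DESeq2 calls. Also named are 12 of the 34 genes whose difference between the contrasts was called. Ifit3, Oas3 and Irgm2 are also named for their promoters, and Cidec, Cfd and Pck1 for their low counts. Some genes that this rule names are not reported here. Replicate numbers were not used as pairs in the main fit.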

Additional observations from a re-analysis of the deposited data

Results flagged for a closer look

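The curcumin difference in swimming mice differed from that in mice without swimming for 34 genes, by edgeR's test of the difference over all genes. Given here are 12 genes picked from these calls, so their small p-values are no separate support. The values here are the log2 difference of combination over swimming minus that of curcumin over control. Those with larger values in swimming mice were the endothelial phosphatase Ptprb (1.69), the apelin receptor Aplnr (2.64), the homeobox factor Meox2 (2.03) and the collagen-binding proteoglycan Fmod (2.16), with the receptor Erbb3 (1.37) and the aspartoacylase Aspa (3.04). Those with smaller values in swimming mice were the integrin chain Itgb2 (-1.28), the actin bundler Lcp1 (-0.93), the lipoxygenase Alox5 (-3), the protease inhibitor Slpi (-1.63), the glycogen branching enzyme Gbe1 (-1.25) and Cwc22 (-2.94). Adjusted p-values ran from 0.0066 for Ptprb to 0.048 for Alox5. Without swimming, Aspa and Slpi stood at -0.06 and -0.07, so their values came mostly from the swimming mice. The number of such genes moved strongly with single libraries, as given with the comparison above.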

How the results depend on the processing

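Against 0 calls for curcumin over control, DESeq2 gave 87 (51 higher), limma voom 3 (3 higher) and no filter on low counts 2 (2 higher). Leaving out 1 library gave 0 to 8 calls, of which 0 to 7 were higher. At an unadjusted p under 0.05, against 1490 genes there were 926 with only curcumin and control libraries in the fit, 532 when tested against a 1.2-fold change and 926 to 2705 without 1 library. The difference between the contrasts, called for 34 genes, gave 217 with DESeq2, 22 with limma voom, 19 without the robust option, 10 against a 1.2-fold change and 0 to 460 without 1 library. The 908 calls in swimming mice became 1886 with DESeq2, 2797 with limma voom and group weights, 129 against a 1.2-fold change and 31 to 2705 without 1 library. Where a library left an arm of 2, the spread was pooled over all groups. The causes were not tested.

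Same-numbered curcumin and control libraries correlated in their deviations at -0.251 to 0.0177, and those with different numbers at -0.0812 to 0.228. These values gave no sign of pairing by number, though so few pairs cannot exclude it. With replicate number as a block, 1 gene was called (1 higher), 11 for the difference between contrasts and 496 in swimming mice.

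Of 267 named genes none changed sign while called. DESeq2 called 45 of them, and leaving out control 2 called 2 and changed the sign of 18 uncalled ones. That omission moved 10 of 56 list medians by more than the spread between replicates. Counting promoter matches only before the start gave the response element core in 50% of type I interferon windows, against 62.5%. Depth limits genes near 1 CPM, where a few counts decide a fold change.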
